A study of Mus musculus with 2 samples.

Results

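Rora, Ahr, Irf4, Ikzf3 and Runx1 encode transcription factors with known roles in interleukin-17-producing (type 17) T cells. These 5 genes, out of 32285 genes counted, were followed in single CD8 T cells that did or did not carry high levels of Il17a transcript. They were taken by symbol, and all 5 were counted in both libraries; cells were barcodes that passed a floor of 500 genes and a ceiling of 10% mitochondrial UMIs (709 of 754 and 1018 of 1149). CD8 T cells had been isolated with beads from mesenteric lymph nodes of C57/B6N mice, polarised to Tc17 cells with a commercial Th17 cytokine kit, and stimulated with PMA at 100 ng/ml plus ionomycin at 10 μg/ml for 3 h, a pair of drugs that imitates antigen receptor signalling. One library, called deficient-labelled here, came from mice carrying floxed Nfatc1 alleles and a Cre recombinase driven by the Cd4 promoter, which is active in developing T cells, CD8 cells included. The other, called wild-type-labelled, came from wild-type mice and had the same culture and stimulation. The sources used here do not give how many mice stand behind each library. Each group was 1 library, so differences had no replicate check and no test was run. All intervals are 95% counting intervals, which leave out the spread between mice, cultures and, for summed levels and their ratios, cells.

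RORα, the product of Rora, is a nuclear receptor that binds ROR elements, among them elements at the Il17a and Il17f locus. IRF4 is induced by antigen receptor signalling and binds DNA together with BATF and JUN proteins, and it is required for IL-17 production by T cells in mice. AHR is a ligand-activated factor that pairs with ARNT and promotes type 17 differentiation. Aiolos, encoded by Ikzf3, is an IKAROS family zinc finger protein induced in Th17 cells, where it represses Il2. RUNX1 binds DNA with its partner CBFβ and can act with the type 17 program or, when bound by T-bet, against it.

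After filtering, the deficient-labelled library held 709 cells with a median of 21436 unique molecular identifiers (UMIs, each 1 counted transcript molecule) and the wild-type-labelled library 1018 cells with a median of 20905.5 UMIs. No barcode was shared. Nfatc1 itself went against its label, at 136 CPM (counts per 1000000 UMIs) in the deficient-labelled library, against 39.8 CPM in the wild-type-labelled one. The kit counts 3′ transcript ends, and the sources used here do not name the deleted exons, so these counts check nothing about the deletion, and every direction between the libraries rests on the labels. The cells carried the T cell marker set: all 10 CD8 T cell markers were detected, Cd8b1 in 96.5% of cells of the deficient-labelled library and 96.6% of those of the wild-type-labelled one, while Cd4 was found in 0.564% and 0.295%. In the same libraries, the summed level was 2876 and 2921 CPM for the CD8 T cell markers. It was 30.5 and 31.4 CPM for 3 CD4 T cell markers, of which Cd4 gave only 0.391 and 0.450 CPM, and 2.51 and 0.941 CPM for 6 gamma delta T cell markers. The sums were 37.7 and 47.9 CPM for 9 B cell and plasma cell markers and 39.1 and 39.9 CPM for 8 dendritic cell markers. They were 3.24 and 3.39 CPM for 8 myeloid markers and 2.29 and 4.09 CPM for 5 NK cell markers. Cells with 3 or more B cell and plasma cell markers made up 0.846% and 0.491% of the libraries. No class of cells that should lack the 5 factors was set apart to measure free RNA, and shares of cells with a UMI are given without such a background.

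A cell was called Il17a-high at 10 or more Il17a UMIs per 10000 of its UMIs. In the deficient-labelled library 176 of 709 cells (24.8%) were Il17a-high, and in the wild-type-labelled library 631 of 1018 (62.0%). Il17a itself, which set the classes, stood at 12722 CPM in Il17a-high and 99.5 CPM in Il17a-low cells of the deficient-labelled library, and at 16077 and 147 CPM in those of the wild-type-labelled library. Just inside and outside the limit, the lowest Il17a-high cell had 10.4 and the highest Il17a-low cell 9.09 UMIs per 10000 in the deficient-labelled library, and 10.0 and 9.19 in the wild-type-labelled one.

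The 5 genes lie on 5 chromosomes (GENCODE M21, mm10 build). Rora (ENSMUSG00000032238) spans chr9:68653786-69388246 on the plus strand, Ahr (ENSMUSG00000019256) chr12:35497974-35535038 on the minus strand, Irf4 (ENSMUSG00000021356) chr13:30749226-30766976 on the plus strand, Ikzf3 (ENSMUSG00000018168) chr11:98464902-98546031 on the minus strand and Runx1 (ENSMUSG00000022952) chr16:92601466-92826149 on the minus strand. All are protein-coding. Rora, Ahr and Runx1 each overlap 1 counted gene on the opposite strand (Gm15511, Gm48236 and Gm26626), and the sources used here do not give how strand was used in counting.

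The sequences below are the 250 bases before the annotated start, 5′ to 3′ on the gene's own strand (RefSeq, GRCm38.p6). Il17a and Il17f are shown because ROR and RUNX proteins are known to act at their shared locus in type 17 cells, Ifng as the cytokine gene of the opposite program, and Rora and Runx1 as the 2 factors that were 2-fold lower in Ifng-high cells of the deficient-labelled library, which for Runx1 was not seen in the wild-type-labelled one. Capitals mark matches to the ROR element AGGTCA or the RUNX element TGTGGT on either strand. The windows are chr1:20730655-20730904 (Il17a, plus), chr1:20784271-20784520 (Il17f, minus), chr10:118440796-118441045 (Ifng, plus), chr9:68653536-68653785 (Rora, plus) and chr16:92826075-92826324 (Runx1, minus). The RefSeq starts used for Il17f and Runx1 lie inside the GENCODE spans of those genes. All of the Il17f window and part of the Runx1 window therefore fall within them.
Il17a: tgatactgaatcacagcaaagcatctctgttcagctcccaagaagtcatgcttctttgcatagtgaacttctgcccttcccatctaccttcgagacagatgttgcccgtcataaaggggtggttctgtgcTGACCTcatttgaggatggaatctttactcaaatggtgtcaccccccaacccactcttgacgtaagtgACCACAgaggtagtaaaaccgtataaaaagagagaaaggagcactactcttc
Il17f: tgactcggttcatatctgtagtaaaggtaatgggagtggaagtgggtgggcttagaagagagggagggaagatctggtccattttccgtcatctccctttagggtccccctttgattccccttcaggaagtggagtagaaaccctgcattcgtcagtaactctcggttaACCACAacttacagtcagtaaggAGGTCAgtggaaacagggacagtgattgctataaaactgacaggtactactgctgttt
Ifng: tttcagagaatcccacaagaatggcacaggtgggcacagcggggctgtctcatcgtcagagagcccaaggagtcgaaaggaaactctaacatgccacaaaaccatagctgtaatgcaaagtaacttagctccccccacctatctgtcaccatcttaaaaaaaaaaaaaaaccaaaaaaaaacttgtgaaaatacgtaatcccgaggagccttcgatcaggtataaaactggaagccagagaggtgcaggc
Rora: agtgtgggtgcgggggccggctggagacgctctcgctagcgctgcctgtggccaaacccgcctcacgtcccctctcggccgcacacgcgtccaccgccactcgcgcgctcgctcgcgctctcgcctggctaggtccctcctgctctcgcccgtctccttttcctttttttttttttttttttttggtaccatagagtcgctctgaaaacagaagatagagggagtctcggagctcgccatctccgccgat
Runx1, distal start: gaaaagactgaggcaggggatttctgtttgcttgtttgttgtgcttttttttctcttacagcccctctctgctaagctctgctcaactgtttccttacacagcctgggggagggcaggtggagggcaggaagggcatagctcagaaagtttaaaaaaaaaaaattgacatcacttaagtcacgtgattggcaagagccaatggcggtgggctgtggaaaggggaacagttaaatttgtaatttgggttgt
The Il17a window held a ROR match 120 to 115 bases before the start and a RUNX match 52 to 47 bases before it. The Il17f window held a RUNX match 81 to 76 and a ROR match 58 to 53 bases before its start. The Ifng, Rora and Runx1 windows held neither. Across 32851 promoter windows of this length, 14.0% held the ROR letters, 14.0% the RUNX letters and 2.23% both, the state of the 2 interleukin-17 windows. These matches are letters in a window, not measured binding.

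Over all cells, 4 of the 5 factors stood higher in the deficient-labelled library, and Rora stood lower. A difference was counted as large at 2-fold on log2(CPM + 1), among genes with at least 20 CPM in 1 group. None of the 5 reached it between the libraries, against 2.27% of 5584 genes that were 2-fold higher and 2.08% that were 2-fold lower; 54.7% of genes were higher by any amount. Rora had 249.6 CPM in the deficient-labelled library and 298 CPM in the wild-type-labelled one, 1.19-fold lower (interval 1.15 to 1.24). Ahr had 119.9 CPM in the deficient-labelled library and 68.9 CPM in the wild-type-labelled one, 1.74-fold higher (1.63 to 1.86). Ikzf3 had 181 CPM in the deficient-labelled library and 104 CPM in the wild-type-labelled one, also 1.74-fold higher (1.65 to 1.83). The Ahr and Ikzf3 ratios both lay at percentile 96.5 of all genes tested. Runx1 had 63.7 CPM in the deficient-labelled library and 41.3 CPM in the wild-type-labelled one (1.54-fold higher, 1.42 to 1.68, percentile 94.4), and Irf4 had 462 CPM in the deficient-labelled library and 337 CPM in the wild-type-labelled one (1.37-fold higher, 1.33 to 1.41, percentile 90.7).

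A summed level cannot tell fewer expressing cells from less RNA per cell, so shares of cells were compared with every cell thinned to 5000 UMIs (698 deficient-labelled and 1004 wild-type-labelled cells; 11 and 14 shallower cells left out). Ahr was detected in 40.4% of cells (36.7 to 44.1) in the deficient-labelled library and 27.0% in the wild-type-labelled one (24.3 to 29.9). Ikzf3 was detected in 48.3% (44.5 to 52.1) and 34.1% (31.1 to 37.1), Irf4 in 80.1% (76.9 to 83.0) and 68.5% (65.5 to 71.4). For each of these 3 factors, and for Runx1, the intervals did not overlap, and the higher share was the deficient-labelled one. Shares over all genes are not given, so how unusual this was cannot be told. Runx1 was detected in 21.6% of cells (18.6 to 24.9) in the deficient-labelled library and 15.1% in the wild-type-labelled one (13.0 to 17.5), and Rora in 49.0% (45.2 to 52.8) and 54.2% (51.0 to 57.3), with intervals that overlapped. Unthinned, the shares of deficient-labelled and wild-type-labelled cells were 76.2% and 59.8% for Ahr, 82.5% and 70.5% for Ikzf3, 94.1% and 92.6% for Irf4, 44.9% and 41.3% for Runx1, and 70.1% and 77.2% for Rora.

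The factors also differed in how evenly cells carried them. Irf4 was the most even: the 10% of cells with the most Irf4 UMIs held 27.1% of them in the deficient-labelled library and 30.4% in the wild-type-labelled one. The top 10% for Runx1 held 56.5% and 53.1%, and the median cell of each library had no Runx1 UMI. Rora, Ikzf3 and Ahr lay between these, with 37.5% to 44.7% of their UMIs in their top 10% of cells. The median cell had 4.37 Irf4 UMIs per 10000 in the deficient-labelled library and 2.99 in the wild-type-labelled one.

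Set against Il17a within each library, Rora and Runx1 were higher in Il17a-high cells of both libraries, Irf4 and Ahr were lower in both, and Ikzf3 went opposite ways. Runx1 in Il17a-high cells of the deficient-labelled library was the single one of these 10 ratios to reach 2-fold. There, 2.45% of 5603 genes were 2-fold higher and 0.464% 2-fold lower; in the wild-type-labelled library the background was 0.495% higher and 0.33% lower of 5459 genes. By any amount, 59.2% of genes were higher in Il17a-high cells of the deficient-labelled library and 40.3% in those of the wild-type-labelled one.

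**Figure D1:**
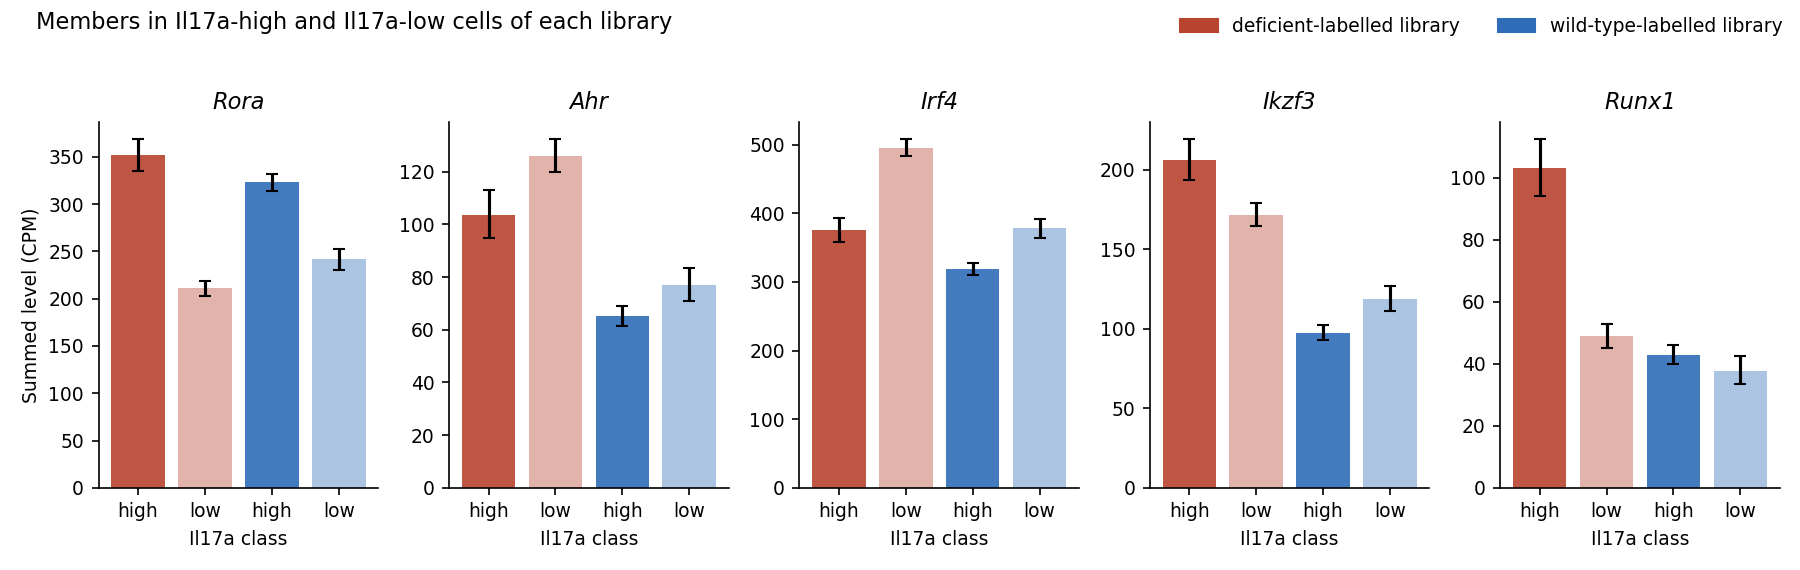
Summed level (CPM) of each factor in Il17a-high and Il17a-low cells; red bars are the deficient-labelled library (176 and 533 cells), blue bars the wild-type-labelled library (631 and 387 cells), and error bars are 95% Poisson counting intervals. Runx1 stands apart in the deficient-labelled Il17a-high cells, at 103 CPM against 37.8 to 48.8 CPM in the other 3 classes.

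Runx1 had 103 CPM (94.2 to 112) in Il17a-high and 48.8 CPM (45.1 to 52.7) in Il17a-low cells of the deficient-labelled library, a 2.11-fold difference (1.87 to 2.38; log2 1.06, percentile 97.7). With TMM or median ratio scaling of the totals it was log2 0.94, just short of 2-fold. It stood 1.01 above the median of all genes, a gap that scaling can hardly change because it moves both almost alike. In the wild-type-labelled library it had 42.9 CPM (39.8 to 46.1) in Il17a-high and 37.8 CPM (33.5 to 42.4) in Il17a-low cells, a ratio of 1.13 whose interval reached below 1 (0.99 to 1.30). At 5000 UMIs per cell, a Runx1 UMI was found in 34.3% of Il17a-high and 17.6% of Il17a-low deficient-labelled cells, and in 15.4% of Il17a-high and 14.7% of Il17a-low wild-type-labelled cells. The difference was thus seen in the number of cells with Runx1 as well as in its sum, in the deficient-labelled library. The wild-type-labelled direction turned among thinned cells (log2 −0.03) and among cells called G1 (log2 −0.14).

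Rora had 352 CPM (335 to 368) in Il17a-high and 211 CPM (203 to 219) in Il17a-low cells of the deficient-labelled library, 1.67-fold higher (1.57 to 1.77, percentile 95.6). It had 323 CPM (314 to 332) in Il17a-high and 242 CPM (231 to 253) in Il17a-low cells of the wild-type-labelled library, 1.34-fold higher (1.27 to 1.41, percentile 95.9). Rora kept this direction in both libraries under all 18 alternatives. The share of cells with Rora at 5000 UMIs was 63.9% in Il17a-high and 44.2% in Il17a-low deficient-labelled cells, and 61.2% in Il17a-high and 42.6% in Il17a-low wild-type-labelled cells, so the shares in corresponding classes of the 2 libraries lay within each other's intervals.

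Irf4 ran the other way. It had 375 CPM in Il17a-high and 495 CPM in Il17a-low cells of the deficient-labelled library (1.32-fold lower, 1.25 to 1.39, percentile 2.82), and 319 CPM in Il17a-high and 378 CPM in Il17a-low cells of the wild-type-labelled library (1.19-fold lower, 1.13 to 1.24, percentile 11.6). Ahr had 104 CPM in Il17a-high and 126 CPM in Il17a-low cells of the deficient-labelled library (1.21-fold lower, 1.10 to 1.34), and 65.2 CPM in Il17a-high and 76.9 CPM in Il17a-low cells of the wild-type-labelled library (1.18-fold lower, 1.06 to 1.30). Neither factor had its higher summed level in Il17a-high cells of either library. The shares of cells did not separate the classes in this way. At 5000 UMIs, Irf4 was found in 76.3% of Il17a-high (69.2 to 82.5) and 81.3% of Il17a-low cells (77.7 to 84.5) of the deficient-labelled library, and in 68.1% (64.3 to 71.8) and 69.2% (64.3 to 73.8) of those of the wild-type-labelled library. Ahr was found in 34.9% (27.8 to 42.6) and 42.2% (37.9 to 46.5) of the same classes of the deficient-labelled library, and in 25.3% (22.0 to 28.9) and 29.7% (25.2 to 34.6) of those of the wild-type-labelled library. All 4 pairs of intervals overlapped, and some directions turned with depth. At 10000 UMIs, Irf4 was found in 86.9% of Il17a-high and 81.4% of Il17a-low wild-type-labelled cells, and Ahr in 61.6% of Il17a-high and 58.3% of Il17a-low deficient-labelled cells. At 2000 UMIs, Ahr was found in 12.1% of Il17a-high and 10.9% of Il17a-low wild-type-labelled cells.

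Ikzf3 had 206 CPM (194 to 219) in Il17a-high and 172 CPM (165 to 179) in Il17a-low cells of the deficient-labelled library, 1.20-fold higher (1.11 to 1.29). It had 97.6 CPM (92.9 to 102) in Il17a-high and 119 CPM (111 to 127) in Il17a-low cells of the wild-type-labelled library, 1.22-fold lower (1.12 to 1.32). The share of cells with Ikzf3 at 5000 UMIs was 49.1% in Il17a-high and 48.0% in Il17a-low deficient-labelled cells, and 32.2% in Il17a-high and 37.1% in Il17a-low wild-type-labelled cells, with overlapping intervals in each library. Opposite directions in the 2 libraries are common: 34.7% of the 5239 genes that reached 20 CPM in both comparisons had them. Among those genes, 17 were 2-fold higher and 10 were 2-fold lower in Il17a-high cells of both libraries.

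**Figure D2:**
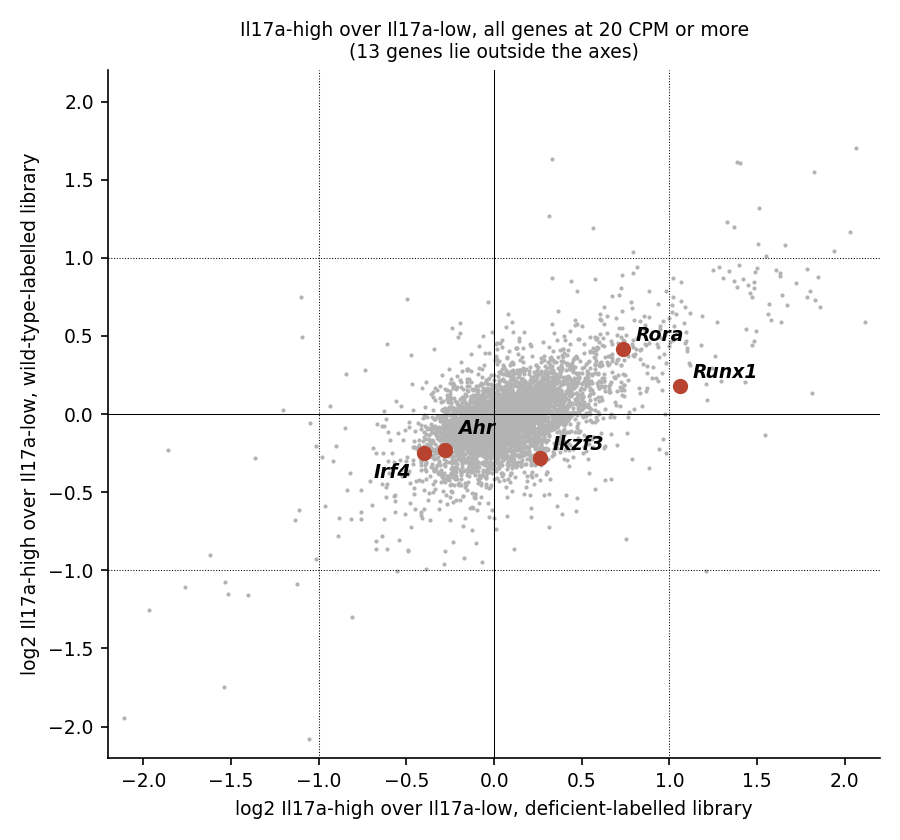
Each grey point is 1 of the 5239 genes with at least 20 CPM in both comparisons, placed by log2 Il17a-high over Il17a-low in the deficient-labelled library (x axis) and in the wild-type-labelled library (y axis); red points are the 5 factors and dotted lines mark 2-fold. Rora and Runx1 lie in the upper right quadrant, Irf4 and Ahr in the lower left, and Ikzf3 (0.26 and −0.28) in the lower right.

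Cell cycle genes and depth moved with the Il17a classes. Over all genes, 2.45% were 2-fold higher in Il17a-high cells of the deficient-labelled library and 0.495% in those of the wild-type-labelled one. Of 29 G2M phase genes with at least 20 CPM, 19 were 2-fold higher in Il17a-high cells of the deficient-labelled library. There 8.88% of Il17a-high and 3.78% of Il17a-low cells were called G2M. In the wild-type-labelled library 3 of 25 were 2-fold higher, with 8.97% and 5.53% called G2M. Between the libraries in Il17a-low cells, 18 G2M phase genes reached 20 CPM. Some of the 29 therefore passed only through the Il17a-high class, which favours a 2-fold count. Among cells of the deficient-labelled library called G1, Runx1 was at log2 1.15, Rora at 0.73, Ikzf3 at 0.21, Irf4 at −0.24 and Ahr at −0.47. No direction turned in that library. Among G1 cells of the wild-type-labelled library the direction of Runx1 turned, from log2 0.18 to −0.14. In the wild-type-labelled library the median cell had 22175 UMIs in the Il17a-high and 18159 in the Il17a-low class, while in the deficient-labelled library the medians were 21458.5 and 21375. Their part in the result was not tested beyond the G1 and thinned values given.

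Along the Il17a level itself, Runx1 in the deficient-labelled library formed a ladder. In cells with less than 1, 1 to under 10, 10 to under 100, and 100 or more Il17a UMIs per 10000, Runx1 stood at 38.0, 68.0, 84.9 and 119.7 CPM in the deficient-labelled library. It stood at 38.6, 36.7, 33.6 and 47.8 CPM in the wild-type-labelled one. The 2 libraries were thus alike in the cells with the least Il17a, and the deficient-labelled level was the higher one in the other 3 groups. These groups mix cells with high and low Ifng (limit 10 UMIs per 10000). Among Il17a-low cells with low Ifng, Runx1 had 82.8 CPM in the deficient-labelled and 39.4 CPM in the wild-type-labelled library. Among those with high Ifng it had 22.9 and 27.9 CPM. Rora stood at 195, 239, 341 and 361 CPM in the deficient-labelled library, and at 240.2, 244, 306 and 332 CPM in the wild-type-labelled library. Its main step fell between the classes below and above 10 UMIs per 10000 in both. Irf4 stood at 500.1, 487, 393 and 359 CPM in the deficient-labelled library, and at 374, 383, 301 and 328 CPM in the wild-type-labelled library. Ahr stood at 121, 135, 107 and 101 CPM, and at 84.4, 67.7, 66.8 and 64.4 CPM, in the same libraries. Both factors had their lower levels at 10 or more Il17a UMIs per 10000 in each library. Ahr in the wild-type-labelled library had its main drop below that limit, from 84.4 to 67.7 CPM, with 66.8 CPM in the next group. Ikzf3 stood at 162, 189, 202 and 209.7 CPM in the deficient-labelled library, and at 124, 113, 93.1 and 99.99 CPM in the wild-type-labelled library.

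**Figure D3:**
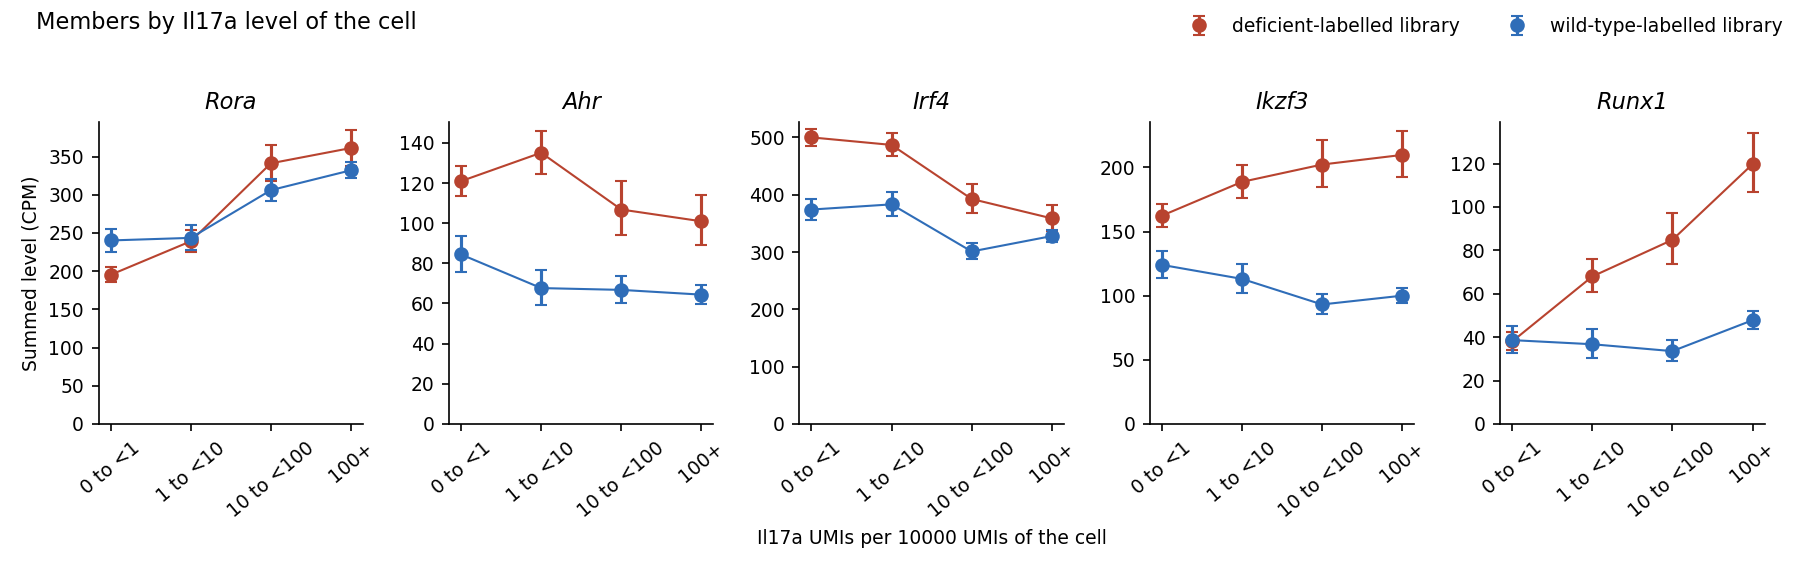
Summed level (CPM) of each factor in cells grouped by Il17a UMIs per 10000 UMIs of the cell; red points are the deficient-labelled and blue points the wild-type-labelled library, with 95% Poisson counting intervals. Runx1 in the deficient-labelled library climbs over the 4 groups to 119.7 CPM, whereas in the wild-type-labelled library it stays between 33.6 and 47.8 CPM. The groups mix cells with high and low Ifng.

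Il17a-low cells were not of 1 kind: some carried Ifng, the cytokine gene of type 1 T cells. With the same limit of 10 UMIs per 10000 for Ifng, 265 deficient-labelled cells (37.4%) and 48 wild-type-labelled cells (4.72%) were Il17a-low and Ifng-high, against 268 and 339 cells that were low for both. Rora was the factor lower in the Ifng-high cells of both libraries by over 2-fold. Rora had 116 CPM in Il17a-low Ifng-high and 336 CPM in Il17a-low Ifng-low cells of the deficient-labelled library (2.91-fold lower, 2.68 to 3.16), and 113 CPM in Il17a-low Ifng-high and 263 CPM in Il17a-low Ifng-low cells of the wild-type-labelled library (2.31-fold lower, 1.93 to 2.80). In the Ifng-high class the 2 libraries therefore had nearly the same Rora level.

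Runx1 was lower by more in the deficient-labelled library, at 22.9 CPM in Il17a-low Ifng-high and 82.8 CPM in Il17a-low Ifng-low cells (3.61-fold lower, 3.02 to 4.34). In the wild-type-labelled library it had 27.9 CPM (30 UMIs) in Il17a-low Ifng-high and 39.4 CPM in Il17a-low Ifng-low cells, a ratio of 0.71 with an interval that held 1 (0.47 to 1.04). A Runx1 UMI was found at 5000 UMIs in 7.98% of Il17a-low Ifng-high and 27.1% of Il17a-low Ifng-low deficient-labelled cells, and in 12.5% of Il17a-low Ifng-high and 15.1% of Il17a-low Ifng-low wild-type-labelled cells. So 2 of the 5 factors in the deficient-labelled library and 1 in the wild-type-labelled library were 2-fold lower in Ifng-high cells, beside 2.8% of 5533 and 3.04% of 5566 genes. None was 2-fold higher, beside 0.687% and 1.87% of genes. At an Ifng limit of 50, a setting chosen after seeing the data, 0 factors were 2-fold lower in the wild-type-labelled library.

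The remaining 3 factors stayed within 2-fold. Ikzf3 was lower in Il17a-low Ifng-high cells of both libraries, at 131 CPM against 226 CPM in Il17a-low Ifng-low cells of the deficient-labelled library and at 84.6 CPM against 125 CPM in those of the wild-type-labelled library. Irf4 was higher in them, at 513 CPM in Il17a-low Ifng-high and 472 CPM in Il17a-low Ifng-low cells of the deficient-labelled library, and at 469.7 CPM and 363 CPM in those of the wild-type-labelled library. Ahr had 118 CPM in Il17a-low Ifng-high and 136 CPM in Il17a-low Ifng-low cells of the deficient-labelled library, and 66.0 and 78.6 CPM in those of the wild-type-labelled library; its direction turned in the deficient-labelled library with TMM (log2 0.07) and median ratio scaling (0.10). Ifng and the other cytokine transcripts take part of each cell's total, and the median of all genes was −0.21 on the log2 scale in the deficient-labelled library and −0.14 in the wild-type-labelled one. Relative to that median, Runx1 stood at −1.60 and −0.34, Rora at −1.32 and −1.06, Ikzf3 at −0.58 and −0.42, Irf4 at 0.33 and 0.51, and Ahr at 0.0031 and −0.11. Cells in the Ifng-high class of the deficient-labelled library also had a lower median mitochondrial share, 2.31% against 2.96% in Il17a-low Ifng-low cells, and over all its cells Runx1 and mitochondrial share had a Pearson r of 0.26. The part of these in the results was not tested.

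**Figure D4:**
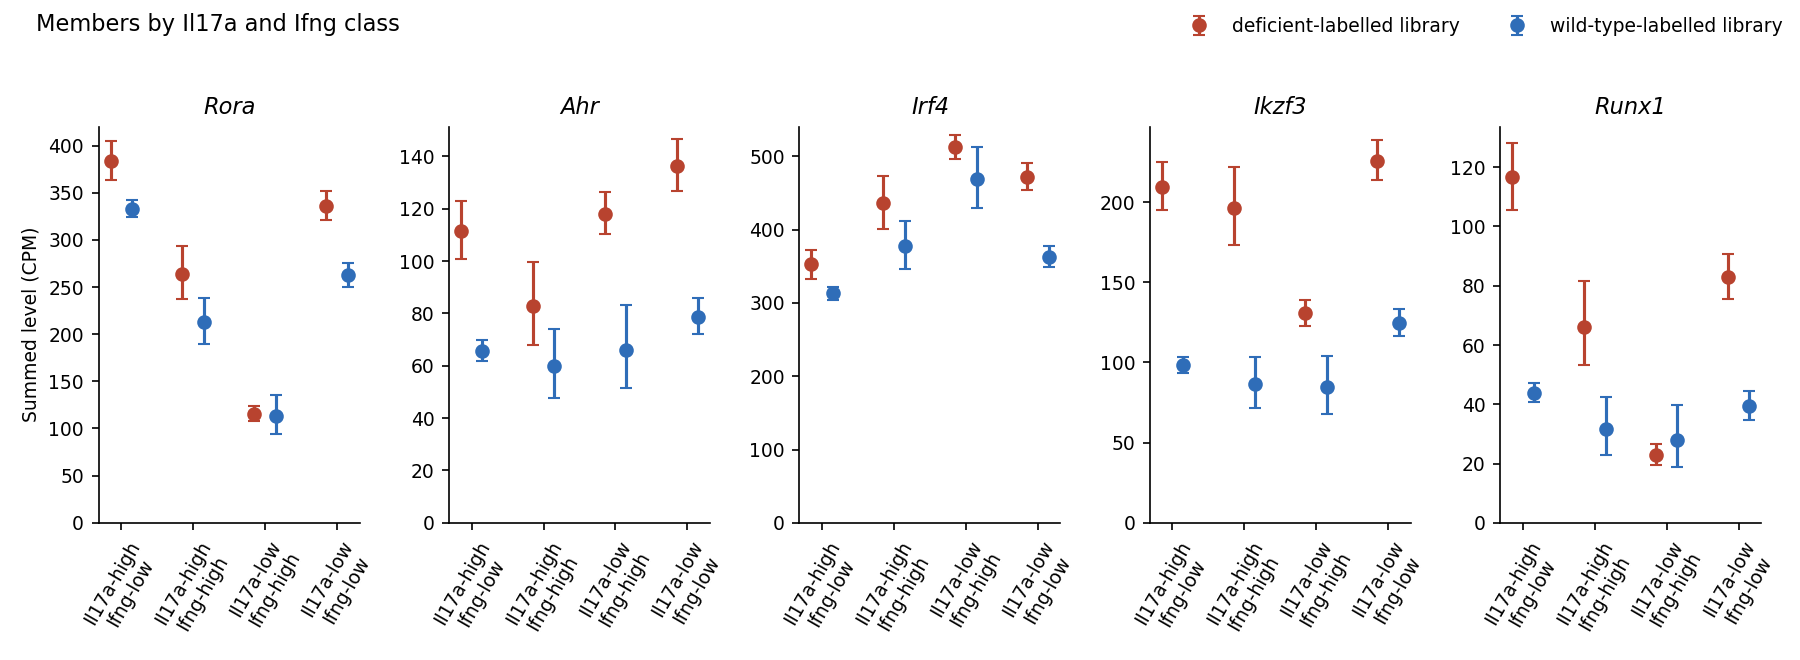
Summed level (CPM) of each factor in the 4 classes set by Il17a and Ifng, each at 10 UMIs per 10000; red points are the deficient-labelled library (138, 38, 265 and 268 cells from left to right), blue points the wild-type-labelled library (587, 44, 48 and 339 cells), and bars are 95% Poisson counting intervals. Rora and Runx1 are lowest in the Il17a-low Ifng-high class, where the libraries overlap.

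With Ifng-high cells left aside, the differences between Il17a classes of the deficient-labelled library were smaller for Runx1 and Rora, and that of Ikzf3 turned. Among Ifng-low cells of the deficient-labelled library, Runx1 was 1.41-fold higher in Il17a-high than in Il17a-low cells (1.23 to 1.61), Rora was 1.14-fold higher (1.06 to 1.22), and Ikzf3 had a ratio of 0.93 (0.85 to 1.02). The 2-fold difference of Runx1 and the direction of Ikzf3 in that library thus did not hold within Ifng-low cells, where 2.3% of 5795 genes were 2-fold higher. Among Ifng-low cells of the wild-type-labelled library, where 0.672% of 5502 genes were 2-fold higher, Rora was 1.27-fold higher (1.20 to 1.34) and Ikzf3 1.26-fold lower (1.16 to 1.38) in the Il17a-high class.

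Between the libraries, Runx1 and Ikzf3 differed more in Il17a-high than in Il17a-low cells. There 2.94% of 5680 genes were 2-fold higher and 1.64% 2-fold lower in the deficient-labelled library, and 2 of the 5 factors were higher by that much. By any amount, all 5 factors were higher, beside 63.5% of genes; in Il17a-low cells 4 of the 5 were, beside 48.7% of genes. With TMM or median ratio scaling Ikzf3 in Il17a-high cells fell short of 2-fold (log2 0.97 and 0.96). Runx1 was 2.40-fold higher (2.14 to 2.70) in the Il17a-high and 1.29-fold higher (1.12 to 1.49) in the Il17a-low cells, and Ikzf3 was 2.11-fold higher (1.95 to 2.28) and 1.44-fold higher (1.34 to 1.56). The Runx1 direction in Il17a-low cells turned with the low class kept below 1 Il17a UMI per 10000 (log2 −0.02) or with Il17f as the splitting gene (−0.13). In Il17a-low cells, 0 of the 5 reached 2-fold, beside 1.99% of 5535 genes that were 2-fold higher and 2.71% that were 2-fold lower. Ahr was higher by a like amount in each, 1.59-fold (1.43 to 1.77) in Il17a-high and 1.64-fold (1.49 to 1.80) in Il17a-low cells. Irf4 was 1.18-fold higher (1.12 to 1.24) in the Il17a-high and 1.31-fold higher (1.25 to 1.37) in the Il17a-low cells. Rora was 1.09-fold higher (1.03 to 1.15) in the Il17a-high and 1.15-fold lower (1.08 to 1.22) in the Il17a-low cells of the deficient-labelled library, and the second value turned when cells were thinned (log2 0.01).

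The libraries were then set side by side within each of the 4 cytokine classes. In the order Il17a-high Ifng-low, Il17a-high Ifng-high, Il17a-low Ifng-high and Il17a-low Ifng-low, 3.76%, 4.37%, 2.58% and 3.09% of genes were 2-fold higher in the deficient-labelled library, and 66.2%, 60.1%, 52.5% and 61% were higher by any amount. Runx1 was higher in the deficient-labelled library by 2.66-fold (2.35 to 3.01) in Il17a-high Ifng-low, 2.09-fold (1.44 to 3.08) in Il17a-high Ifng-high and 2.10-fold (1.80 to 2.46) in Il17a-low Ifng-low cells. In Il17a-low Ifng-high cells its ratio was 0.82 with an interval from 0.55 to 1.26. Rora was higher in the deficient-labelled library in 3 classes, by 1.15-fold to 1.28-fold, and had a ratio of 1.02 (0.84 to 1.24) in the Il17a-low Ifng-high class. The lower Rora of the deficient-labelled library over all cells was therefore not seen within any class, and among all cells below 10 Ifng UMIs per 10000 Rora was higher there (log2 0.19). Ahr was higher in the deficient-labelled library in all 4 classes, from 1.39-fold (1.03 to 1.87) to 1.79-fold (1.40 to 2.31), and Ikzf3 likewise, from 1.54-fold (1.25 to 1.94) to 2.27-fold (1.83 to 2.85). Irf4 was 1.13-fold higher (1.06 to 1.20) in Il17a-high Ifng-low, 1.16-fold (1.03 to 1.30) in Il17a-high Ifng-high and 1.30-fold (1.23 to 1.37) in Il17a-low Ifng-low cells. In Il17a-low Ifng-high cells its ratio was 1.09 with an interval that held 1 (0.99 to 1.20), so that each class lay below the 1.37-fold difference over all cells.

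Ordered over the 8 class levels, Ikzf3 stood above 130 CPM in every deficient-labelled class and at or below 125 CPM in every wild-type-labelled class, although the intervals of the lowest deficient-labelled class (131 CPM, 123 to 139) and the highest wild-type-labelled class (125 CPM, 116 to 134) overlapped. Ahr was ordered the same way, with 4 deficient-labelled classes from 136 to 82.7 CPM followed by 4 wild-type-labelled classes from 78.6 to 59.7 CPM; all neighbours from the fourth place down overlapped. Rora was ordered by class as much as by library. For Runx1 all deficient-labelled classes but the Il17a-low Ifng-high one came before the 4 wild-type-labelled classes. The Il17a-high Ifng-low class of the deficient-labelled library was highest for both genes (384 and 117 CPM), and the Il17a-low Ifng-high classes took the last 2 places. All Runx1 neighbours from the fourth place down overlapped, so its last places were not set apart. Irf4 had its highest level in the deficient-labelled Il17a-low Ifng-high class (513 CPM) and its lowest in the wild-type-labelled Il17a-high Ifng-low class (313 CPM), and 5 of its 7 pairs of neighbours had overlapping intervals.

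Correlations over cells, within each library, repeated these groupings as description only, since cells share a library and differ in depth. Rora and Runx1 had a Pearson r of 0.37 over 709 deficient-labelled cells and 0.12 over 1018 wild-type-labelled cells. Rora and Il17f, the paired interleukin-17 gene, had 0.39 and 0.27 in the same libraries, and Rora and Il17a 0.24 and 0.20. Rora and Ifng had −0.43 and −0.14, and Runx1 and Ifng −0.35 and −0.05. Ahr had its highest r among the factors with Irf4, at 0.24 and 0.13. Irf4 and Il2, another gene of recent activation, had 0.25 and 0.15. Most wild-type-labelled values were weak, and weak values in sparse counts are no finding.

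**Figure D5:**
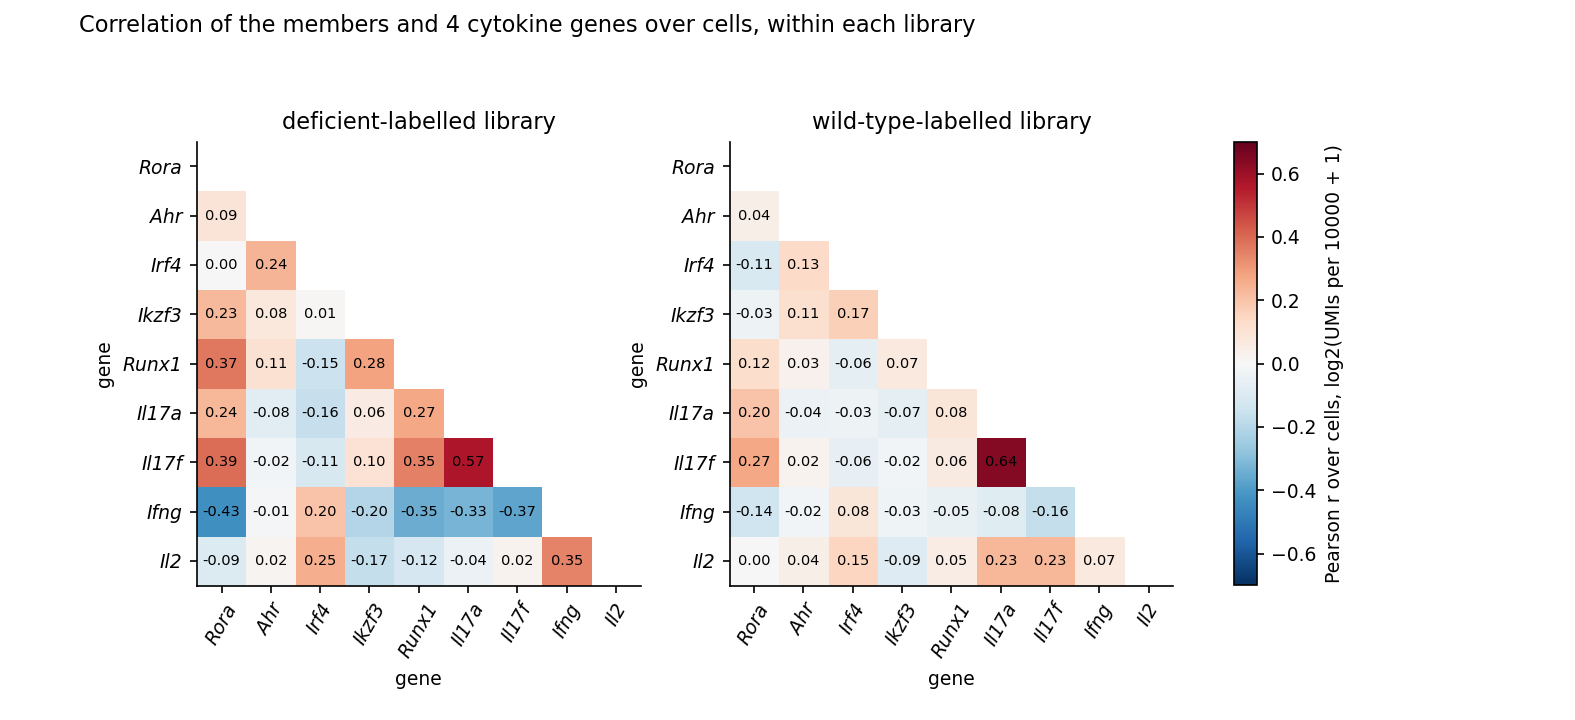
Pearson r over cells between the 5 factors and the cytokine genes Il17a, Il17f, Ifng and Il2, on log2(UMIs per 10000 + 1), for the deficient-labelled library (left, 709 cells) and the wild-type-labelled library (right, 1018 cells). Rora and Runx1 are negative with Ifng and positive with Il17f in the deficient-labelled library (−0.43 and 0.39 for Rora, −0.35 and 0.35 for Runx1).

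The genes most like each factor were taken as the 3 with the highest lower r of the 2 libraries, among 2647 genes with at least 50 CPM in both. For Irf4 they were Cd69, an early activation marker (0.44 in the deficient-labelled library and 0.39 in the wild-type-labelled one), Nfkb1, an NF-κB subunit (0.51 and 0.38), and Pim1, a kinase (0.46 and 0.35). For Rora they were Elk3, an ETS factor (0.35 and 0.35), Dusp4, a MAP kinase phosphatase (0.33 and 0.36), and Ncs1, a calcium sensor (0.29 and 0.28). Ikzf3 was nearest to Ptpn22, Camk2d and Cblb, with r from 0.21 to 0.29 over both libraries. Runx1 was nearest to Stx11, Il2rb and Mbnl1 (0.14 to 0.24), and Ahr to Cdk6, Aopep and Cpd (0.17 to 0.24).

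Detection of several factors in the same cell was also counted. At 5000 UMIs per cell, at least 3 of the 5 were detected in 47.1% of cells (43.4 to 50.9) in the deficient-labelled library and 28.5% in the wild-type-labelled one (25.7 to 31.4). Within the deficient-labelled library the share was 53.3% (45.4 to 61.0) in Il17a-high and 45.2% (40.9 to 49.5) in Il17a-low cells, and within the wild-type-labelled library 29.0% (25.5 to 32.7) in Il17a-high and 27.6% (23.2 to 32.4) in Il17a-low cells. Inside each library these intervals overlapped. All 5 were detected together in 17 of the 698 deficient-labelled cells, against 5 of the 1004 wild-type-labelled cells. The counts expected if the factors were detected independently, given the share of cells with each factor, were not worked out. Whether the factors shared cells more often than that was therefore not tested. Every factor but Rora was itself found in a larger share of deficient-labelled cells at this depth, so the difference between the libraries in joint detection is no separate finding.

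Relatives and partners of the factors did not all follow them. None of the 4 RUNX family and cofactor genes that reached 20 CPM was 2-fold apart between the libraries (median log2 0.31, against 0.03 for all genes). Over all genes, 2.27% were 2-fold higher and 2.08% 2-fold lower. Runx2 had 145 CPM in the deficient-labelled library and 88.0 CPM in the wild-type-labelled one (1.65-fold), a difference like that of Runx1. Runx3, a factor of CD8 lineage choice, had 76.4 and 76.6 CPM, and Cbfb, the shared partner, 95.2 and 95.4 CPM. In Il17a-high over Il17a-low cells of the deficient-labelled library, Runx1 was the member of this list that reached 2-fold, beside 2.45% of genes higher. None reached it in the wild-type-labelled library, beside 0.495% of genes higher, and Runx2 (96.2 and 69.9 CPM) had the largest ratio there. Ikzf1, encoding IKAROS, had 349.5 CPM in the deficient-labelled library and 285 CPM in the wild-type-labelled one (1.23-fold higher), a smaller ratio than that of Ikzf3, the other IKAROS family gene that reached 20 CPM.

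Other IRF genes stood unlike Irf4. Of 5 IRF genes that reached 20 CPM, 2 were 2-fold lower in the deficient-labelled library, beside 2.08% of 5584 genes, and 3 lay within 2-fold. Their median log2 ratio was −0.12, beside 0.03 for all genes. Irf8 had 154 CPM in the deficient-labelled library and 338 CPM in the wild-type-labelled one, and Irf1, an interferon-induced factor, 13.6 and 35.0 CPM. Irf4 was the single one of the 5 that was higher there by any amount, beside 54.7% of all genes. Among 5 genes for its DNA-binding partners, all were lower in the deficient-labelled library (median log2 −0.32), where 54.7% of all genes were higher. Of these partner genes 1 was lower by over 2-fold, beside 2.08% of all genes. Batf3 had 13.6 CPM in the deficient-labelled library and 78.1 CPM in the wild-type-labelled one, whereas Batf had 118 and 148 CPM and Junb 308 and 360.0 CPM. Irf1 and Batf3 reached 20 CPM only through the wild-type-labelled library, which favours a 2-fold count. Batf3 was also higher in Il17a-high cells, at 26.4 CPM against 8.79 CPM in Il17a-low cells of the deficient-labelled library. There it passed the floor only through the Il17a-high class. In the wild-type-labelled library it had 90.8 CPM in Il17a-high and 50.2 CPM in Il17a-low cells. Of the 5 partner genes, 2 were higher by any amount in deficient-labelled Il17a-high cells, beside 59.2% of genes. Batf3 alone was 2-fold higher, beside 2.45% of genes. In wild-type-labelled Il17a-high cells 1 of the 5 was higher by any amount, beside 40.3% of genes, and none by 2-fold.

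Of 8 AHR partner, repressor and target genes, 2 reached 20 CPM between the libraries. Neither was 2-fold apart, beside 2.27% of genes 2-fold higher and 2.08% 2-fold lower. Tiparp, an AHR-induced gene, had a ratio of 1.47 (1.32 to 1.64) of the deficient-labelled over the wild-type-labelled level, and Arnt, the partner of AHR, had 1.12 (0.97 to 1.28). Ahrr and Cyp1a1, classical targets of AHR, stayed below 20 CPM in both libraries. Of 14 other type 17 regulators, 13 reached 20 CPM and all lay within 2-fold between the libraries. By any amount, 7 of the 13 were higher in the deficient-labelled one, near the 54.7% of all genes that were. Stat3, the factor downstream of IL-6, had 114 CPM in the deficient-labelled library and 90.9 CPM in the wild-type-labelled one, and Maf, which controls Il10 among other genes, 13.2 and 27.1 CPM. Between Il17a classes of the deficient-labelled library, 1 of 13 reached 2-fold, beside 2.45% of genes 2-fold higher and 0.464% 2-fold lower. Maf had 21.9 CPM in Il17a-high and 9.94 CPM in Il17a-low cells there, so it passed the floor only through the class where it was high. In the wild-type-labelled library 0 of 12 reached 2-fold, beside 0.495% of genes higher and 0.33% lower. Maf had 31.6 CPM in Il17a-high and 17.1 CPM in Il17a-low cells of that library. The median log2 ratio of this list lay near that of all genes in each comparison: 0.03 against 0.03 between the libraries, 0.03 against 0.05 between Il17a classes of the deficient-labelled and −0.09 against −0.04 between those of the wild-type-labelled library.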

How the data were processed

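The deposited values are counts of UMIs in a genes by barcodes matrix for each library, made with Cell Ranger 7.0.0 (per the file headers) from 10x Genomics 3′ kit version 3.1 libraries per the labels' protocols, and aligned to mm10 per the submitters' processing notes. The sources used here do not give the annotation or the use of intronic reads. Multiplexing tag counts (4.20% of counts in the deficient-labelled library, 3.83% in the wild-type-labelled one) were left out of totals. Barcodes under 500 genes or over 10% mitochondrial UMIs were dropped, which left 709 of 754 and 1018 of 1149, with 17898193 and 24452538 UMIs, so that 1 UMI is 0.0559 and 0.0409 CPM.

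UMIs were summed per class and divided by the class total (CPM). Folds are ratios of CPM; log2 ratios carry a pseudocount of 1 CPM, which understates low genes. Percentiles rank a log2 ratio among all genes with at least 20 CPM in 1 of the 2 groups. Intervals are exact Poisson for sums, conditional binomial for ratios and Clopper-Pearson for shares; they treat UMIs as independent and cover counting error only. Cells are not replicates, so there was no test. Cells were thinned without replacement to 5000 UMIs for shares, and phases were called on those cells with scanpy 1.11.5, whose Scrublet marked 5 and 6 doublets (kept). Alternatives used edgeR 4.0.16 TMM factors (R 4.3.3), median ratio factors, other totals, pseudocounts, floors, filters and class limits. Promoter windows were cut at the annotated start; 3 of the 5 factors had one. Of the gene identifiers 99.61% were found in GENCODE M21. Scripts were tested on simulated data. The software was pandas 2.3.3, SciPy 1.17.1 and NumPy 2.4.6 under Python 3.11.15.

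The 5 factors were given in full, with the cytokine genes that set the classes, Nfatc1 and identity markers; other genes named come from lists of relatives and partners, where any gene with at least 20 CPM in 1 group could be named, or from the rule on correlation stated with them. The factors and the lists were chosen with earlier results of these data known. One gene of these lists is not reported here and was left out of its list's counts.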

Additional observations from a re-analysis of the deposited data

Results flagged for a closer look

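Ikzf3 differed in direction between the libraries: Il17a-high over Il17a-low was log2 0.26 in the deficient-labelled library and −0.28 in the wild-type-labelled one, a difference of 0.55. With 1 library per group the difference was not tested, and among Ifng-low cells the deficient-labelled value was −0.11.

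Rora differed in direction between the Il17a classes: deficient-labelled over wild-type-labelled was log2 0.12 in Il17a-high and −0.20 in Il17a-low cells, a difference of 0.32. This difference was not tested either, and the Il17a-low value was 0.01 in thinned cells and 0.36 in Ifng-low cells.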

How the results depend on the processing

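No paired analysis was possible because each group holds 1 library. Of 620 values of single factors under alternatives, 512 moved by less than their counting interval and 108 by more. The 512 include values fixed in advance. Using no floor, or one of 50 CPM, changes only which genes are counted, not a factor's own ratio. A changed low class likewise leaves ratios between the libraries in Il17a-high cells as they were. All 30 shares of cells at other depths (2000 or 10000 UMIs, or unthinned) left their interval, but 4 of the 5 factors had the larger share in the deficient-labelled library at every depth. A like count over all genes is not given. Directions turned for Rora between the libraries (0.19 in Ifng-low cells; in Il17a-low cells 0.01 when thinned, 0.36 in Ifng-low cells), Ikzf3 between deficient-labelled Il17a classes (−0.11 in Ifng-low cells), Runx1 between wild-type-labelled Il17a classes (−0.03 thinned, −0.14 in G1) and between the libraries in Il17a-low cells (−0.02 with the low class below 1 UMI per 10000, −0.13 split by Il17f), Ahr between Ifng classes (deficient-labelled 0.07 with TMM and 0.10 with median ratio factors, wild-type-labelled 0.25 in G1), and Runx1 between wild-type-labelled Ifng classes (0.07 thinned). All are log2 ratios, and the cause was not tested.

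The median log2 of the 5 factors between the libraries was 0.61; it was 0.76 as a mean of per-cell CPM and 0.86 in Ifng-low cells, where 2 factors reached 2-fold. Between deficient-labelled Il17a classes it was 0.26, and 0.14 with TMM, 0.14 with median ratio factors, 0.098 as a mean of per-cell CPM, 0.13 thinned, −0.11 in Ifng-low cells and 0.39 split by Il17f; 0 factors reached 2-fold with TMM, with median ratio factors or in Ifng-low cells, and 2 split by Il17f. Between the libraries in Il17a-high cells it was 0.66, and 0.50 in G1 and 0.82 split by Il17f, with 1 factor 2-fold higher under TMM or median ratio factors. In Il17a-low cells it was 0.39, and 0.47 with TMM, 0.49 with median ratio factors, 0.51 without 7 cytokine and chemokine genes in the total, 0.55 as a mean of per-cell CPM, 0.48 thinned, 0.79 in Ifng-low cells (1 factor 2-fold higher) and 0.47 at an Il17a limit of 50. Between deficient-labelled Ifng classes it was −0.78, and −0.51 with TMM, −0.48 with median ratio factors, −0.65 without the 7 genes and −0.61 at an Ifng limit of 5. Between wild-type-labelled Ifng classes 2 factors were 2-fold lower with the low class below 1 and 0 at an Ifng limit of 50. The Ifng limits of 5 and 50 were chosen after seeing the data.

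Counts of genes 2-fold apart moved with the floor. Without one, 249 genes were higher and 370 lower between the libraries, 509 and 123 between deficient-labelled and 153 and 121 between wild-type-labelled Il17a classes; at 50 CPM, 68 were lower between the libraries, 58 higher and 12 lower, and 10 higher and 8 lower between those classes. Between deficient-labelled Il17a classes 59 were lower when thinned and 76 higher split by Il17f. Between wild-type-labelled ones 10 were lower at a pseudocount of 5 CPM, 35 as a mean of per-cell CPM and 40 thinned, and 13 were higher and 37 lower split by Il17f.

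Scaling moved the median of all genes by up to 0.32 (Ifng classes, deficient-labelled, median ratio factors). Scaling moves a factor and that median almost alike, so the distance between them cannot test the scaling. For Runx1 that distance was 1.01 between deficient-labelled Il17a classes and −1.60 to −1.61 between deficient-labelled Ifng classes. Ifng-low cells alone cannot give the Ifng comparison. Depth limits Runx1 most: it had 30 UMIs in the 48 wild-type-labelled Il17a-low Ifng-high cells.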

Other observations

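Of 14 type 17 effector and receptor genes, Il17a included, 10 reached 20 CPM between the libraries, 3 being 2-fold higher and 6 2-fold lower in the deficient-labelled one (median log2 −1.11). Of all 5584 genes, 2.27% were 2-fold higher and 2.08% 2-fold lower (median 0.03). Some of the 10, such as Ccl20 and Ccr6, reached 20 CPM only through the library where they were high, which favours a 2-fold count. Ccl20, the ligand of CCR6, had 45.3 CPM in the deficient-labelled library and 13.8 CPM in the wild-type-labelled one, while Ccr6 had 16.2 and 52.5 CPM. Ccl20 went opposite ways with Il17a: it had 139.5 CPM in Il17a-high and 9.48 CPM in Il17a-low deficient-labelled cells, and 9.70 CPM in Il17a-high and 22.9 CPM in Il17a-low wild-type-labelled cells. Il10 was lower in Il17a-high cells of both libraries, at 73.5 CPM against 290.1 CPM in Il17a-low deficient-labelled cells and at 66.2 CPM against 159 CPM in Il17a-low wild-type-labelled cells. Of 10 listed genes, 7 were 2-fold higher and 1 lower in deficient-labelled Il17a-high cells, beside 2.45% and 0.464% of genes. In the wild-type-labelled library 6 of 11 were higher and 3 lower, beside 0.495% and 0.33%. Il17a, which set the classes, is among those higher. Some, such as Ccl20, reached 20 CPM only through the class where they were high.

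Of 12 transcription factors of other T cell fates, 7 reached 20 CPM, with 2 being 2-fold higher and 2 being 2-fold lower in the deficient-labelled library, beside the same 2.27% and 2.08% of all genes (median log2 −0.16 for the 7). Some reached the floor only through the library where they were high, which favours a 2-fold count. Gata3, the type 2 factor, had 42.9 CPM in the deficient-labelled library and 12.2 CPM in the wild-type-labelled one, and Tox 23.2 and 8.59 CPM. Tbx21, encoding T-bet, had 13.8 CPM in the deficient-labelled library and 33.8 CPM in the wild-type-labelled one, although Ifng had 7368 CPM in the deficient-labelled library and 1319 CPM in the wild-type-labelled one. Of 9 genes known to restrain type 17 genes, 6 reached 20 CPM and 1 was 2-fold apart, beside the same 2.27% and 2.08% of all genes. Egr2 had 71.9 CPM in the deficient-labelled library and 26.6 CPM in the wild-type-labelled one.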
